A study of Homo sapiens with 3 samples.

Results

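The integrin and laminin subunit genes were described in A375SM, a metastatic derivative of the human melanoma line A375. Members were all genes of the deposited count table whose symbols named an integrin alpha subunit, an integrin beta subunit (ITGB1 to ITGB8) or a laminin alpha, beta or gamma chain. This rule used no measured value and found 38 of 24424 genes, namely 18 integrin alpha subunits, 8 integrin beta subunits and 12 laminin chains. Of the 38, 26 had a mean count of at least 50 over the 3 libraries and are called measured here, and those of the other 12 that are described are given by their counts.

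3 populations were compared, with 1 library each. The shPRAME population carried a hairpin against PRAME, a cancer-testis antigen whose product can dampen signalling by retinoic acid receptors. The shBAP1 population carried a hairpin against BAP1, a nuclear deubiquitinase of histone H2A. The shEmpty population is their control, which the study's design text calls a non-targeting hairpin, the vector name calls empty and the genotype label calls wild type, so what its vector encodes cannot be told from the labels. All 3 were made by lentiviral infection with a vector that also encodes green fluorescent protein, and fluorescent cells were kept as a stable population. Each target was lowered with a single hairpin construct, so what a hairpin does to genes other than its target and what the lowered target does cannot be told apart.

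Integrins are cell surface receptors made of one alpha and one beta chain, and they tie the matrix outside the cell to actin inside it. The alpha chain largely sets the ligand: collagens, laminins, proteins with an RGD motif such as fibronectin and vitronectin, or counter-receptors on other cells. Laminins are secreted heterotrimers of one alpha, one beta and one gamma chain that form the sheet of basement membranes, and several integrins are their receptors. In melanoma, cells that leave the epidermis cross such a basement membrane, and the integrin made from ITGAV and ITGB3 is a classical marker of the invasive growth phase.

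The libraries held 18456328 counts (shPRAME), 14181829 counts (shBAP1) and 19430130 counts (shEmpty). PRAME stood at 32.9% of its shEmpty level in shPRAME (31.2% to 34.6%) and BAP1 at 35.2% of its shEmpty level in shBAP1 (31.8% to 38.8%). Levels are counts scaled by TMM to library size (CPM). A gene is called higher or lower in a comparison when its scaled counts differed by 2-fold or more and 1 lay outside the ratio's exact 95% counting interval. Intervals in brackets are of this kind, cover counting error only and do not replace replicates: no p-value could be computed, and a call compares the libraries rather than the conditions. Of the melanocyte lineage genes, SOX10 was at 657 CPM in shPRAME, 367 CPM in shBAP1 and 506 CPM in shEmpty, MITF at 114, 239 and 309.9 CPM in the same order, and S100B at 43.2, 186 and 72.4 CPM. Pigment genes were higher in shBAP1, where DCT had 1668 counts, TYRP1 1037, TYR 573, PMEL 34 and MLANA 19, against 6, 1, 0, 8 and 7 counts in shPRAME and 192, 0, 4, 6 and 3 counts in shEmpty. The part of these genes' differences in the members' results was not tested. The RNA came from whole populations, so fewer cells that express a gene and less of its RNA per cell cannot be told apart.

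In the shPRAME library, integrin and laminin genes were more often higher than lower. Against shEmpty, 10 of the 26 measured members were called higher, 3 lower and 13 in neither direction. Among all 11956 measured genes 10.2% were called higher and 9.08% lower in this comparison. The higher members were the collagen receptor chains ITGA1, ITGA10 and ITGA11, the laminin receptor chain ITGA3, ITGA8, ITGAX, ITGB5, LAMA2, LAMA3 and LAMA4, and the lower ones were ITGA6, ITGAE and LAMA1. The members' median log2 ratio was 0.80, beside -0.06 over all measured genes. 4 of the 10 higher members (ITGA8, ITGA11, ITGAX and LAMA2) reached 50 counts in shPRAME alone and passed the count minimum through that library, so they had to differ.

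In the shBAP1 library the members went both ways. Against shEmpty 6 were called higher (ITGA2, ITGA4, ITGA6, ITGA11, ITGB8 and LAMA2), 5 lower (ITGA5, ITGA10, ITGAX, LAMA1 and LAMA3) and 15 in neither direction, where 5.53% of all measured genes were higher and 8.56% lower. The median log2 ratio was 0.04, beside -0.03 over all measured genes. With total-count scaling the median over all genes moved by 0.12 to 0.09, and the share of higher calls among all calls from 39.2% to 49.8%. Set against each other, shPRAME had 13 members higher and 5 lower than shBAP1, with a median of 0.96 beside -0.06, where 14.2% of all measured genes were higher and 10.9% lower, and here the same scaling took the share of higher calls over all genes from 56.6% to 50.1%. The 13 were ITGA1, ITGA3, ITGA5, ITGA8, ITGA10, ITGA11, ITGAX, ITGB1, ITGB3, ITGB5, LAMA2, LAMA3 and LAMA4, and the 5 were ITGA4, ITGA6, ITGAE, ITGB8 and LAMA1. ITGA8, ITGA11, ITGAX and LAMA2 are among the 13 and passed the count minimum through shPRAME alone, so this count and median carry the same selection. The knockdown libraries share shEmpty as control, so their ratios to it are given side by side and not related to each other.

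**Figure D1:**
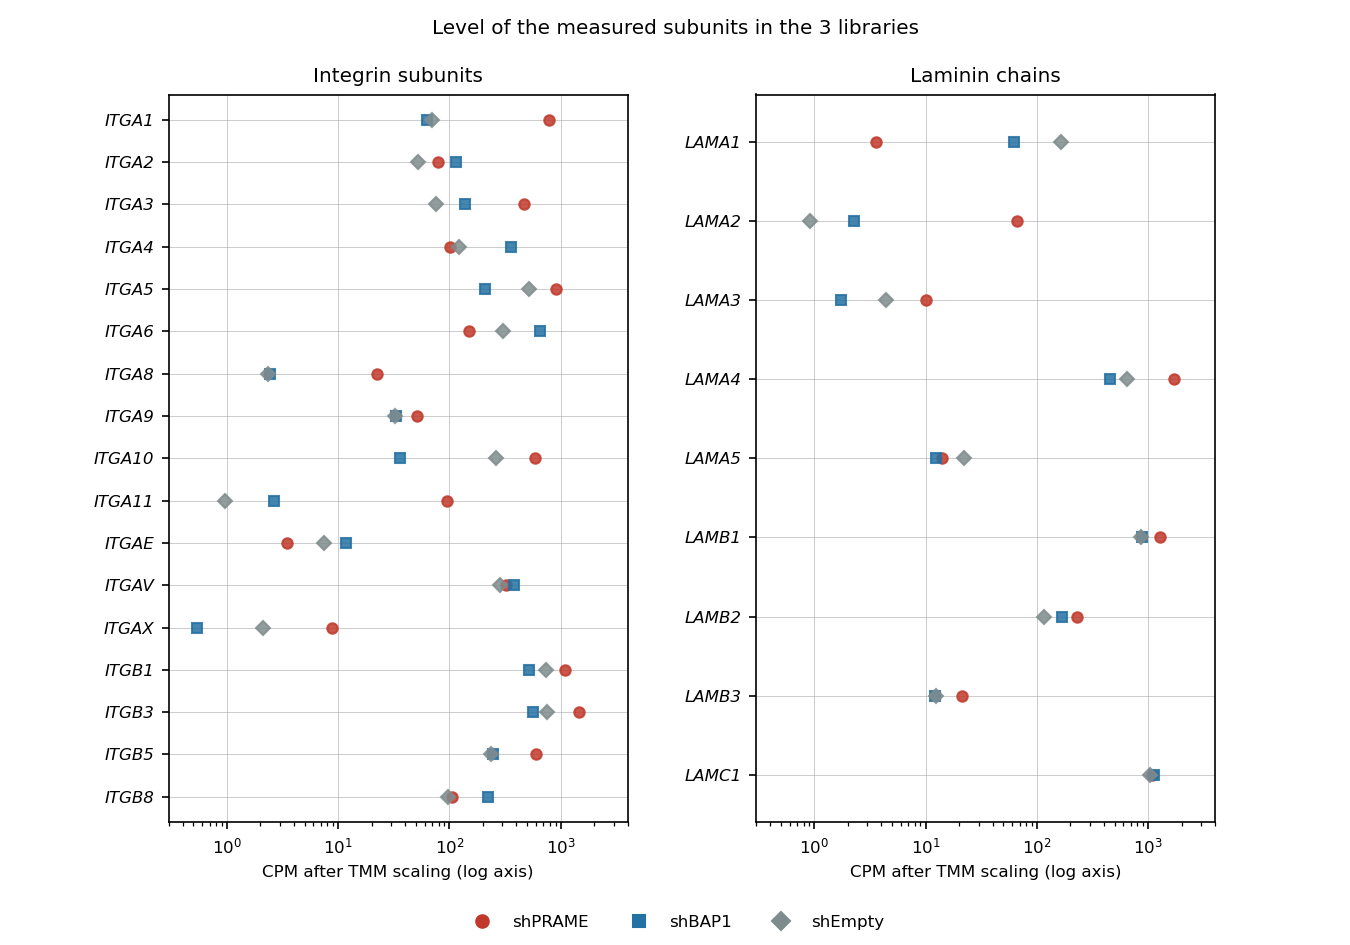
Level of the 26 measured subunits in CPM after TMM scaling on a log axis, with a red circle for shPRAME, a blue square for shBAP1 and a grey diamond for shEmpty (1 library each). ITGA1, ITGA8, ITGA11 and LAMA2 lie far to the right in shPRAME, LAMA1 far to the left, and LAMC1 at about the same place in each library, between 1034 and 1138 CPM.

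**Figure D2:**
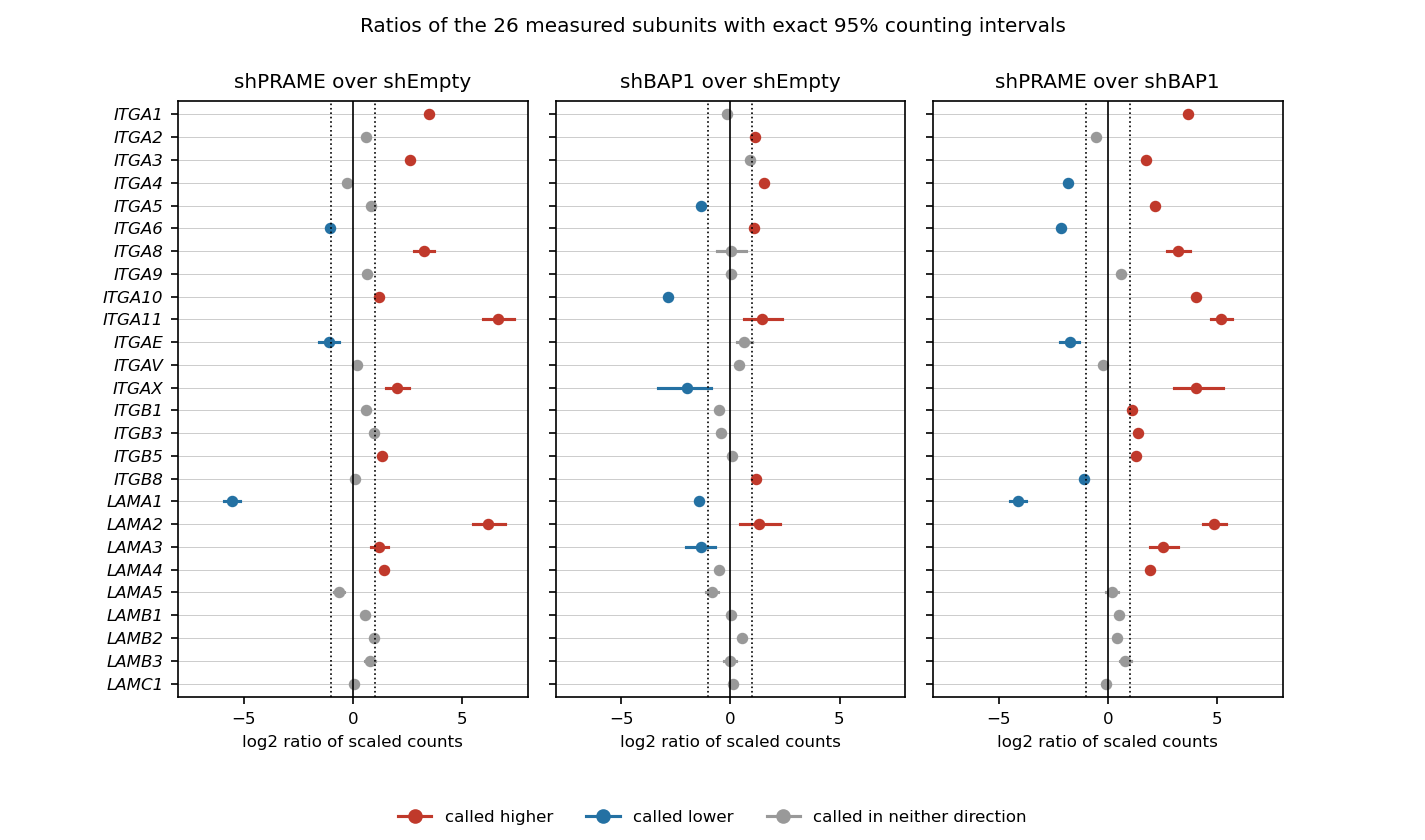
Log2 ratios of scaled counts of the 26 measured subunits, in panels for shPRAME over shEmpty, shBAP1 over shEmpty and shPRAME over shBAP1, with exact 95% counting intervals as bars and dotted lines at 2-fold. Red marks members called higher, blue lower and grey neither; ITGA11 (6.63) and LAMA2 (6.20) lie farthest right and LAMA1 (-5.52) farthest left in the first panel.

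Some members lay close to the 2-fold limit. In shPRAME against shEmpty the closest member inside the limit was ITGA6 (2.06-fold lower) and the closest outside was LAMB2 (1.98-fold higher). In shBAP1 against shEmpty they were ITGA6 (2.15-fold higher) and ITGA3 (1.84-fold higher), and in shPRAME against shBAP1 they were ITGB8 (2.12-fold lower) and LAMB3 (1.75-fold higher). With DESeq2 size factors, total-count scaling or upper-quartile scaling LAMB2 was called higher in shPRAME than in shEmpty (log2 ratios of 1.00, 1.02 and 1.07).

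Promoter windows of 250 bases before to 50 bases after the gene start, from RefSeq on GRCh38.p14, were on hand for 26 of the 38 members (33 windows). The windows below are of ITGA11, LAMA2, ITGA10, ITGA1 and ITGA8, the 5 members with the highest ratios of shPRAME over shBAP1 among those with a window. Each is printed 5′ to 3′ in the direction of transcription, and capitals mark matches on either strand to AP-1 (TGANTCA), TEAD (GGAATG), a nuclear receptor half-site (AGGTCA), a MITF-type E-box (CATGTG), SP1 (GGGCGG) or a TATA box (TATAAA).
ITGA11 promoter, chr15:68432114-68432413, minus strand: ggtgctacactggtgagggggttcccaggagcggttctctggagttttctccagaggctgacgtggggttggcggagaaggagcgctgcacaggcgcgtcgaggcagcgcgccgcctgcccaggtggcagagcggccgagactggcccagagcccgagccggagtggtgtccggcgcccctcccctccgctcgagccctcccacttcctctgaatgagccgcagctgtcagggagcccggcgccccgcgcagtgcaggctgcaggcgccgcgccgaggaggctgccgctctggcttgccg
LAMA2 promoter, chr6:128882888-128883187, plus strand: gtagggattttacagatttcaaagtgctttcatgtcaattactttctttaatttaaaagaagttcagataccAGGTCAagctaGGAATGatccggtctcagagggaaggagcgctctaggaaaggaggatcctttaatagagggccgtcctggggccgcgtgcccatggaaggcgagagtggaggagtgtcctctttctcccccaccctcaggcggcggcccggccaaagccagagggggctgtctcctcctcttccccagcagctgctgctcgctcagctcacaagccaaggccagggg
ITGA10 promoter, chr1:145910001-145910300, minus strand: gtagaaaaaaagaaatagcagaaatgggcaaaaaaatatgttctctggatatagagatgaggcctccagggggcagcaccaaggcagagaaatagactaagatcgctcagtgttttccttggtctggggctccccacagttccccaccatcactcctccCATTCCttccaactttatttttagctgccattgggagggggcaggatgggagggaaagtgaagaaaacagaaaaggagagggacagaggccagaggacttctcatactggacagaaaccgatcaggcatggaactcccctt
ITGA1 promoter, chr5:52787666-52787965, plus strand: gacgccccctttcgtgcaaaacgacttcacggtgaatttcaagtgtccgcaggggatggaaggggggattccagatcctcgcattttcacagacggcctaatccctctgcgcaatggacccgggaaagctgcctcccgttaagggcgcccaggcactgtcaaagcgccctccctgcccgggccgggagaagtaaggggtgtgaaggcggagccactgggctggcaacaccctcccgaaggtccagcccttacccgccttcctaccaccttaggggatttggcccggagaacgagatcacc
ITGA8 promoter, chr10:15719873-15720172, minus strand: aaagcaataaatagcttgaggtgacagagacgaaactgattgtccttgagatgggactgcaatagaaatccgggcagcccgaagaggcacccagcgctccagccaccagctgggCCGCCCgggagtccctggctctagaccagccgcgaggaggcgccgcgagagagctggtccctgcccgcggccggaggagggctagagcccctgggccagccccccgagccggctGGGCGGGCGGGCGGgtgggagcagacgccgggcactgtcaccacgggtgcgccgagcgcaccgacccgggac

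The windows share little in these letters. ITGA11 and ITGA1 hold none of the motifs. The LAMA2 window holds 1 nuclear receptor half-site and, 5 bases on, 1 TEAD match, ITGA10 holds 1 TEAD match on the opposite strand, and ITGA8 holds 4 SP1 matches, of which 3 overlap each other. They also differ in CpG content, with 29 CpG dinucleotides in ITGA11, 10 in LAMA2, 2 in ITGA10, 19 in ITGA1 and 27 in ITGA8, beside a median of 13.0 over the members' windows and 21.0 over 22199 windows of protein-coding genes. Of the 33 member windows 3 hold AP-1, 4 TEAD, 2 the half-site, 4 the E-box, 19 SP1 and 2 the TATA box. Of the 22199 windows of protein-coding genes 6.2% hold AP-1, 12.2% TEAD, 11.9% the half-site, 8.9% the E-box, 56.3% SP1 and 9.5% the TATA box. Of all 35116 windows of this length 7.7%, 14.0%, 13.8%, 11.1%, 45.0% and 11.5% hold them in the same order.

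The collagen receptor chains ITGA1, ITGA2, ITGA10 and ITGA11, which all pair with ITGB1, were the group in which shPRAME and shBAP1 lay farthest apart. Their summed level per kilobase of exon, the scale used here whenever genes are compared with each other, was 205 CPM per kilobase in shPRAME, 27.5 in shBAP1 and 62.8 in shEmpty. The sum in shPRAME was therefore 3.26 times that of shEmpty and 7.46 times that of shBAP1, and the sum in shBAP1 0.438 times that of shEmpty. Collagen receptors made up 33.5% of the integrin alpha level in shPRAME, 7.77% in shBAP1 and 19.5% in shEmpty. These sums and shares depend on the length used. The ITGA1 share of the alpha level in shPRAME was 12.0%, but 20.6% per kilobase of coding sequence and 22% without a length. As plain counts, collagen receptor chains held 28433 of 65817 alpha counts in shPRAME, 3200 of 29783 in shBAP1 and 7199 of 32643 in shEmpty.

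ITGA1, the alpha chain of a receptor for collagen IV and fibrillar collagens, had 14491 counts (793 CPM) in shPRAME, 927 counts (62.4 CPM) in shBAP1 and 1309 counts (69.9 CPM) in shEmpty. Only shPRAME stood apart, 11.3-fold above shEmpty (10.7 to 12.0) and 12.7-fold above shBAP1 (11.9 to 13.6), while shBAP1 was at 0.894 of shEmpty. PELO, a ribosome rescue factor encoded within the ITGA1 locus on the same strand, shares 475 exonic bases with it (4.4% of the ITGA1 exons) and was itself at 126 CPM in shPRAME, 49.5 in shBAP1 and 46.6 in shEmpty. How counting shared reads between the pair is not given in the sources used here.

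ITGA10, a collagen II receptor chain known from cartilage, differed in both knockdowns. It had 10761 counts (589 CPM) in shPRAME, 539 counts (36.3 CPM) in shBAP1 and 4887 counts (261 CPM) in shEmpty. Its level was 2.26-fold higher in shPRAME than in shEmpty (2.18 to 2.33) and 7.18-fold lower in shBAP1 than in shEmpty (6.57 to 7.87), which left shPRAME 16.2-fold above shBAP1 (14.9 to 17.7). Its window printed above is the poorest in CpG of the 5.

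ITGA11, a collagen I receptor chain best known from fibroblasts, had 1738 counts (95.1 CPM) in shPRAME, 39 counts (2.63 CPM) in shBAP1 and 18 counts (0.961 CPM) in shEmpty. It was 99.0-fold higher in shPRAME than in shEmpty (62.4 to 167), the highest ratio of any measured member in that comparison, and 36.2-fold higher than in shBAP1 (26.4 to 51.1). The 2.73-fold higher level in shBAP1 than in shEmpty (1.53 to 5.08) rested on those 39 and 18 counts, and that call ended with a pseudocount of 1 CPM (log2 ratio 0.89). Per kilobase, ITGA11 reached 9.33 CPM in shPRAME, which was still under ITGA1 (73.7) and ITGA10 (112) there.

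ITGA2, the alpha chain of the collagen I receptor of platelets and epithelia, had 1443 counts (78.9 CPM) in shPRAME, 1695 counts (114 CPM) in shBAP1 and 985 counts (52.6 CPM) in shEmpty. Unlike the other collagen receptor chains it was highest in shBAP1, 2.17-fold above shEmpty (2.01 to 2.35), and its 1.5-fold ratio in shPRAME was not called. ITGA2 lies beside ITGA1 on chromosome 5 with PELO as the one protein-coding gene between their starts.

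Fibroblasts are a cell type that makes ITGA11 and LAMA2. The summed level of 9 fibroblast markers was 144 CPM in shPRAME, 105 in shBAP1 and 71.1 in shEmpty, and 8, 6 and 6 of them had over 10 counts in that order. FAP and LUM made up most of it. COL1A1 had 23 counts in shPRAME, 3 in shBAP1 and 1 in shEmpty, and THY1 had 4, 3 and 0. PDGFRB was at 19.4 CPM in shPRAME, 3.57 in shBAP1 and 3.90 in shEmpty and PDGFRA at 24.4, 2.22 and 14.0 CPM, while COL3A1 had 13, 66 and 1 counts and DCN 49, 40 and 20. FBLN1 had 151, 6 and 75 counts in the same order. The part of these markers in the ITGA11, LAMA2 and ITGA1 differences was not tested.

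**Figure D3:**
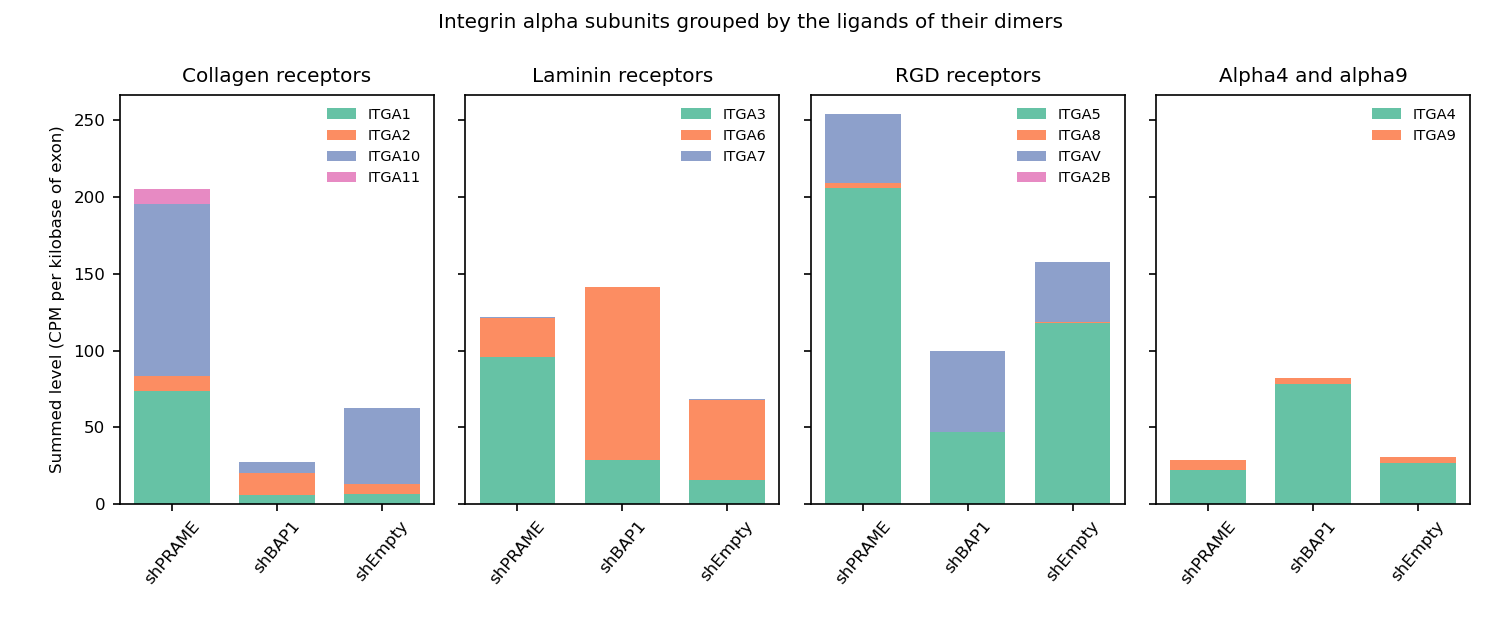
Summed level of integrin alpha subunits in CPM per kilobase of exon, stacked by gene, for collagen, laminin and RGD receptors and for ITGA4 with ITGA9, with bars for shPRAME, shBAP1 and shEmpty (1 library each, no error bars). Collagen and RGD receptor bars are tallest in shPRAME (205 and 254) and shortest in shBAP1 (27.5 and 99.5), while the laminin receptor and ITGA4 with ITGA9 bars are tallest in shBAP1 (141 and 82.2).

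Among the laminin receptor chains, ITGA3 and ITGA6 were ordered differently in the libraries. ITGA3, a chain of the receptor for laminins 332 and 511, had 8567 counts (469 CPM) in shPRAME, 2071 counts (140 CPM) in shBAP1 and 1418 counts (75.7 CPM) in shEmpty. It was 6.19-fold higher in shPRAME than in shEmpty (5.85 to 6.55). Its ratio of 1.84 in shBAP1 was not called, though it was with total-count scaling or with GC and length trends removed (log2 ratios of 1.00 and 1.01).

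ITGA6, the other main laminin receptor chain, had 2717 counts (149 CPM) in shPRAME, 9759 counts (657 CPM) in shBAP1 and 5729 counts (306 CPM) in shEmpty. It was 2.06-fold lower in shPRAME than in shEmpty (1.97 to 2.15), 2.15-fold higher in shBAP1 than in shEmpty (2.08 to 2.22) and 4.42-fold lower in shPRAME than in shBAP1 (4.24 to 4.62). The lower call in shPRAME ended with upper-quartile scaling (log2 ratio -0.95) and with the trends removed (-0.98). Per kilobase, ITGA3 exceeded ITGA6 in shPRAME (95.9 against 25.4), and ITGA6 exceeded ITGA3 in shBAP1 (113 against 28.5) and in shEmpty (52.4 against 15.5). ITGA7, the muscle laminin receptor chain, had 34 counts in shPRAME, 7 in shBAP1 and 18 in shEmpty.

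The sum of the 3 laminin receptor chains was 122 CPM per kilobase in shPRAME, 141 in shBAP1 and 68.1 in shEmpty. Both knockdown libraries lay above the control, by 1.79 times in shPRAME, where ITGA3 made up most of the sum, and by 2.08 times in shBAP1, where ITGA6 did. Counts per gene do not separate the splice forms of ITGA3 and ITGA6, which differ in their cytoplasmic tails.

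ITGA5, the alpha chain of the classical fibronectin receptor, led the RGD-binding chains per kilobase in shPRAME and shEmpty, and ITGAV led them in shBAP1. ITGA5 had 16738 counts (915 CPM) in shPRAME, 3082 counts (208 CPM) in shBAP1 and 9804 counts (523 CPM) in shEmpty. It was 2.52-fold lower in shBAP1 than in shEmpty (2.42 to 2.63) and 4.41-fold higher in shPRAME than in shBAP1 (4.24 to 4.58), while its 1.75-fold ratio in shPRAME against shEmpty stayed under the limit. ITGA5 was the leading alpha chain per kilobase in shPRAME (33.7% of the alpha level, 33.3% to 34.1%) and in shEmpty (36.6%, 36.1% to 37.2%). In shBAP1 it ranked 4, at 13.2% (12.8% to 13.6%), and ITGA6 led with 31.8% (31.3% to 32.4%). These leaders were the same per kilobase of coding sequence and without any length.

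ITGAV, the shared alpha chain of the vitronectin and TGF-beta activating receptors, varied least among the abundant alpha chains. It had 5886 counts (322 CPM) in shPRAME, 5611 counts (378 CPM) in shBAP1 and 5334 counts (285 CPM) in shEmpty, and none of its ratios was called (1.13 for shPRAME and 1.33 for shBAP1 over shEmpty). ITGA8, the chain of the nephronectin receptor, had 410 counts (22.4 CPM) in shPRAME, 36 counts (2.42 CPM) in shBAP1 and 44 counts (2.35 CPM) in shEmpty. It was 9.55-fold higher in shPRAME than in shEmpty (6.99 to 13.3) and 9.25-fold higher than in shBAP1 (6.57 to 13.4), while the interval of shBAP1 over shEmpty spanned 1 (0.646 to 1.64). ITGA2B, the platelet fibrinogen receptor chain, had 6 counts in shPRAME, 1 in shBAP1 and 1 in shEmpty, and the platelet genes PPBP and GP9 had none in any library.

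ITGA4 and ITGA9 form a small group of their own that binds VCAM1, tenascin, osteopontin and a fibronectin segment outside the RGD site. ITGA4, which is also the leukocyte homing chain, had 1861 counts (102 CPM) in shPRAME, 5339 counts (360 CPM) in shBAP1 and 2309 counts (123 CPM) in shEmpty. It was 2.92-fold higher in shBAP1 than in shEmpty (2.78 to 3.07) and 3.53-fold lower in shPRAME than in shBAP1 (3.35 to 3.73), and its ratio of 0.826 in shPRAME over shEmpty was not called. ITGA9 had 936 counts (51.2 CPM) in shPRAME, 495 counts (33.3 CPM) in shBAP1 and 607 counts (32.4 CPM) in shEmpty, with no call. ITGA4 took 3.61% of the alpha level per kilobase in shPRAME, 22.1% in shBAP1 and 8.32% in shEmpty, which made it the second alpha chain of shBAP1 after ITGA6, though ITGAV came second there per kilobase of coding sequence and without a length.

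The alpha chains of leukocyte integrins were scarce throughout. ITGAX, the complement receptor chain CD11c of dendritic cells and macrophages, had 161 counts (8.81 CPM) in shPRAME, 8 counts (0.539 CPM) in shBAP1 and 40 counts (2.13 CPM) in shEmpty. It was 4.12-fold higher in shPRAME than in shEmpty (2.90 to 5.99) and 3.96-fold lower in shBAP1 than in shEmpty (1.83 to 9.80), and 16.3-fold higher in shPRAME than in shBAP1 (8.10 to 38.5). ITGAE, the E-cadherin binding chain of resident T cells, had 64 counts (3.50 CPM) in shPRAME, 173 counts (11.7 CPM) in shBAP1 and 140 counts (7.47 CPM) in shEmpty. Its 2.13-fold lower level in shPRAME than in shEmpty (1.58 to 2.92) was no longer called with a pseudocount of 1 CPM (log2 ratio -0.91), and it was 3.33-fold lower in shPRAME than in shBAP1 (2.49 to 4.51).

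The partners that these chains need were nearly absent from the libraries. ITGB2, the common beta chain of leukocyte integrins, had 0 counts in shPRAME, 1 in shBAP1 and 0 in shEmpty, and ITGB7, the partner of ITGAE, had 11, 4 and 17. ITGAL had 0, 1 and 0 counts, ITGAM 2, 0 and 0, and ITGAD 2, 0 and 0, in the same order. Where a library has 0 counts of a gene, 3 counts is the limit it allows, equal to 0.164 CPM in shPRAME, 0.202 in shBAP1 and 0.160 in shEmpty. ITGB7 shares 51.4% of its exonic bases with ZNF740 on the opposite strand, which was at 34.9 CPM in shPRAME, 52.5 in shBAP1 and 59.5 in shEmpty, so its few counts are uncertain.

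Leukocyte markers summed to 153 CPM over 9 genes in shPRAME, 67.4 in shBAP1 and 54.5 in shEmpty, with 5, 4 and 3 of them over 10 counts. CD68, a lysosomal protein that many cell types express, made up 144, 61.7 and 49.0 CPM of these sums. CD3E had no count in any library, and the pan-leukocyte gene PTPRC had 52 counts in shPRAME, 32 in shBAP1 and 40 in shEmpty. The myeloid markers CD14 (19, 5 and 1 counts) and LYZ (34, 15 and 3 counts, in the same order) were highest in shPRAME, as ITGAX was. The part of these markers in the ITGAX and ITGAE differences was not tested.

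Of the 4 measured beta chains 1 was called in each comparison with shEmpty and all 4 in shPRAME against shBAP1. Over all measured genes 10.2% were higher and 9.08% lower in shPRAME against shEmpty, and 5.53% and 8.56% in shBAP1 against shEmpty. With 4 genes, 1 call is close to those shares. In shPRAME against shBAP1 14.2% of all measured genes were higher and 10.9% lower. ITGB1, the partner of most alpha chains found here, had 20192 counts (1104 CPM) in shPRAME, 7654 counts (516 CPM) in shBAP1 and 13809 counts (737 CPM) in shEmpty. ITGB3, the beta chain of the vitronectin receptor, had 26874 counts (1469.9 CPM) in shPRAME, 8340 counts (562 CPM) in shBAP1 and 14135 counts (754 CPM) in shEmpty. Both were in the order shPRAME, shEmpty, shBAP1 from high to low. Neither was called against shEmpty, with ratios of 1.5 and 1.95 in shPRAME and 0.700 and 0.745 in shBAP1, and both were higher in shPRAME than in shBAP1, ITGB1 by 2.14-fold (2.09 to 2.20) and ITGB3 by 2.62-fold (2.55 to 2.68). With total-count or upper-quartile scaling ITGB3 was called higher in shPRAME than in shEmpty as well (log2 ratios of 1.00 and 1.05).

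ITGB5, another partner of ITGAV, had 10925 counts (598 CPM) in shPRAME, 3632 counts (245 CPM) in shBAP1 and 4420 counts (236 CPM) in shEmpty. It was the only beta chain called in shPRAME against shEmpty, 2.53-fold higher (2.45 to 2.62), and was 2.44-fold higher in shPRAME than in shBAP1 (2.35 to 2.54). ITGB8, whose dimer with ITGAV activates TGF-beta, had 1926 counts (105 CPM) in shPRAME, 3310 counts (223 CPM) in shBAP1 and 1838 counts (98.1 CPM) in shEmpty. It was the only beta chain called in shBAP1 against shEmpty, 2.27-fold higher (2.15 to 2.41), and was 2.12-fold lower in shPRAME than in shBAP1 (2.0 to 2.24). ITGB4, the hemidesmosome chain that pairs with ITGA6 in epithelia, had 22 counts in shPRAME, 15 in shBAP1 and 12 in shEmpty, and ITGB6, an epithelial partner of ITGAV, had 4, 0 and 0.

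Per kilobase, ITGB1 made up 36.8% of the beta level in shPRAME, 38.6% in shBAP1 and 44.2% in shEmpty, and ITGB3 43.8%, 37.7% and 40.5%. The order of these 2 chains in shBAP1 and shEmpty depended on the length used, since ITGB3 came first there per kilobase of coding sequence and without a length. ITGB8 made up 1.5% in shPRAME, 7.12% in shBAP1 and 2.51% in shEmpty. Its shares also depended on the length, at 3.32%, 14.8% and 5.54% per kilobase of coding sequence and 3.21%, 14.4% and 5.37% without a length. In GENCODE 29 a read-through transcript that is not a row of the count table covers 51.6% of the ITGB3 exonic bases, so reads from that stretch cannot be assigned to one or the other from these counts.

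**Figure D4:**
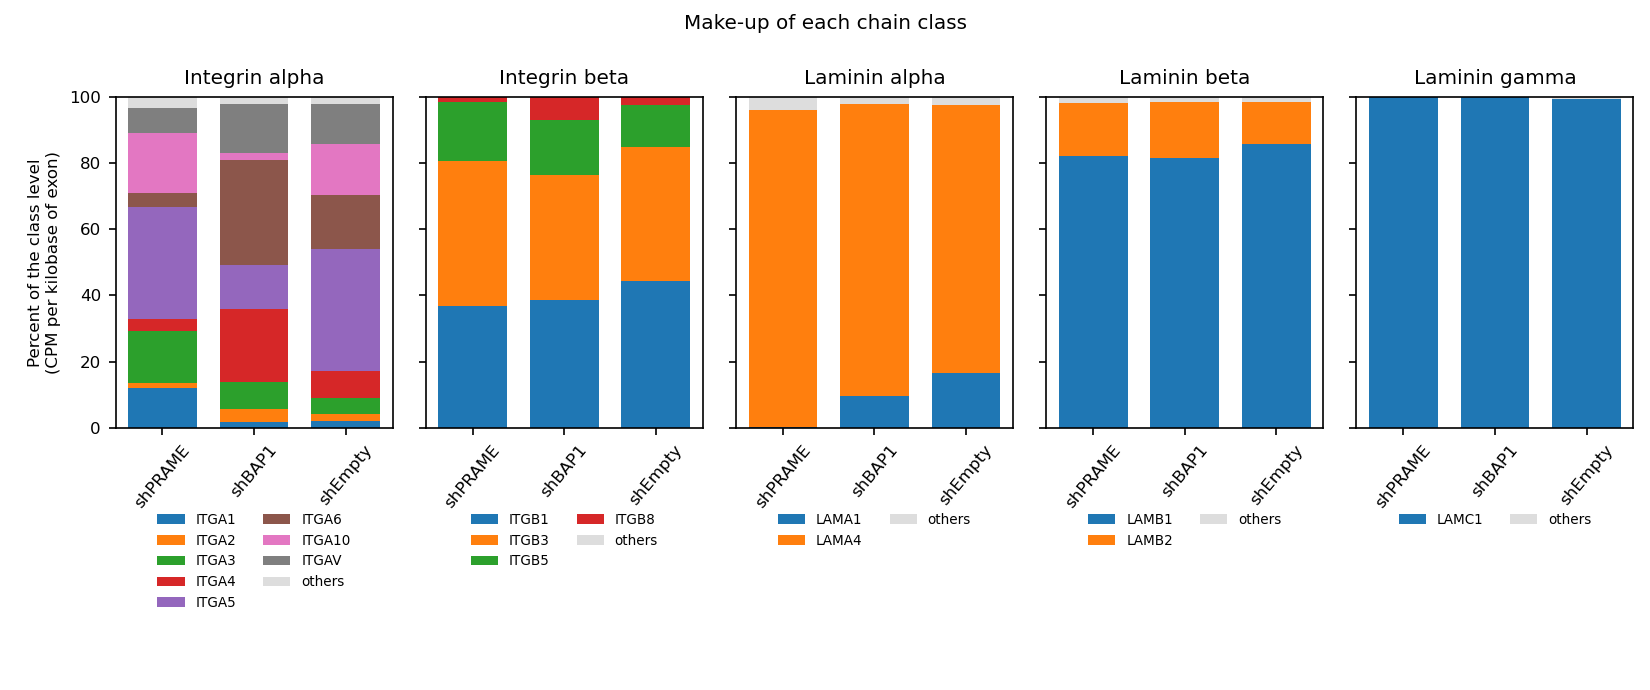
Make-up of each chain class in shPRAME, shBAP1 and shEmpty, as percent of the summed CPM per kilobase of exon in that class; chains that stay small in each library are pooled as others. ITGA5 is the largest alpha band in shPRAME and shEmpty and ITGA6 in shBAP1, and LAMA1 falls to 0.159% of the laminin alpha level in shPRAME, against 16.6% in shEmpty.

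Of 9 measured laminin genes, 3 were higher and 1 lower in shPRAME than in shEmpty, beside 10.2% and 9.08% over all measured genes. In shBAP1 1 was higher and 2 lower than in shEmpty, beside 5.53% and 8.56%. Between the knockdowns 3 were higher and 1 lower in shPRAME than in shBAP1, beside 14.2% and 10.9%. LAMA2, among the higher each time, passed the count minimum through shPRAME alone. With TMM scaling every call among the laminin genes fell on an alpha chain. LAMA4, the alpha chain of laminins 411 and 421 of vessel walls and mesenchyme, led this class in all 3 libraries. It had 31565 counts (1726 CPM) in shPRAME, 6767 counts (456 CPM) in shBAP1 and 12061 counts (644 CPM) in shEmpty. It was 2.68-fold higher in shPRAME than in shEmpty (2.63 to 2.74) and 3.79-fold higher than in shBAP1 (3.69 to 3.89), and its ratio of 0.708 in shBAP1 over shEmpty was not called. Its share of the laminin alpha level per kilobase was 95.9% in shPRAME, 88.3% in shBAP1 and 81.0% in shEmpty. The endothelial marker CDH5 had no count in any library and PECAM1 0, 2 and 0 counts in shPRAME, shBAP1 and shEmpty, although the endothelial list summed to 52.0, 14.3 and 79.4 CPM in that order. KDR made up 31.3, 11.5 and 78.8 CPM of it, and TIE1, with 359 counts in shPRAME, 11 in shBAP1 and 3 in shEmpty, was highest in shPRAME, as LAMA4 was. The part of these markers in the LAMA4 difference was not tested.

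LAMA1, the alpha chain of the embryonic laminin 111, was lower in both knockdown libraries. It had 66 counts (3.61 CPM) in shPRAME, 917 counts (61.8 CPM) in shBAP1 and 3103 counts (166 CPM) in shEmpty. The level in shPRAME was 45.9-fold lower than in shEmpty (36.0 to 59.5) and 17.1-fold lower than in shBAP1 (13.3 to 22.3), and that in shBAP1 was 2.68-fold lower than in shEmpty (2.49 to 2.89). LAMA1 made up 0.159% of the laminin alpha level in shPRAME, 9.51% in shBAP1 and 16.6% in shEmpty, where it was second to LAMA4.

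LAMA2, the alpha chain of the muscle and nerve laminin 211, went the other way in shPRAME. It had 1217 counts (66.6 CPM) in shPRAME, 34 counts (2.29 CPM) in shBAP1 and 17 counts (0.907 CPM) in shEmpty. It was 73.4-fold higher in shPRAME than in shEmpty (45.6 to 126) and 29.1-fold higher than in shBAP1 (20.7 to 42.2). The call in shBAP1 against shEmpty, 2.52-fold higher (1.37 to 4.82), ended with a pseudocount of 1 CPM (log2 ratio 0.79). LAMA2 replaced LAMA1 as the second laminin alpha chain of shPRAME, at 2.99% of the class, against 0.358% in shBAP1 and 0.0923% in shEmpty. Genes that mark smooth and skeletal muscle, which also make LAMA2, summed to 2.24 CPM over 6 genes in shPRAME, 1.15 in shBAP1 and 1.17 in shEmpty, and CNN1, MYOD1 and MYOG had no count in any library.

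LAMA3, the chain of the epithelial laminin 332, had 187 counts (10.2 CPM) in shPRAME, 26 counts (1.75 CPM) in shBAP1 and 83 counts (4.43 CPM) in shEmpty. It was 2.31-fold higher in shPRAME than in shEmpty (1.77 to 3.03) and 5.84-fold higher than in shBAP1 (3.86 to 9.17). Its 2.53-fold lower level in shBAP1 than in shEmpty (1.61 to 4.09) was no longer called with a pseudocount of 1 CPM (log2 ratio -0.98). LAMA5, the chain of laminins 511 and 521, had 258 counts (14.1 CPM) in shPRAME, 183 counts (12.3 CPM) in shBAP1 and 412 counts (22.0 CPM) in shEmpty, with no call. With GC and length trends removed LAMA5 was called lower in shPRAME than in shEmpty (log2 ratio -1.23), and its ratio to shBAP1 turned from 0.20 to -0.63.

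None of the 4 measured beta and gamma chains, which complete these trimers, was called in the 3 comparisons, but LAMB2 lay just under the limit in shPRAME against shEmpty. Most measured genes were not called either. Over all of them 10.2% were higher and 9.08% lower in shPRAME against shEmpty, and 5.53% and 8.56% in shBAP1 against shEmpty. In shPRAME against shBAP1 14.2% were higher and 10.9% lower. LAMC1, the gamma chain of nearly all laminins outside epithelia, had 19847 counts (1086 CPM) in shPRAME, 16891 counts (1138 CPM) in shBAP1 and 19373 counts (1034 CPM) in shEmpty. Its ratios were 1.05 for shPRAME over shEmpty (1.03 to 1.07) and 1.10 for shBAP1 over shEmpty (1.08 to 1.12). LAMB1 had 23274 counts (1273 CPM) in shPRAME, 13109 counts (883 CPM) in shBAP1 and 16108 counts (859.7 CPM) in shEmpty, with ratios to shEmpty of 1.48 and 1.03. LAMB2, the beta chain of synaptic and vessel laminins, had 4183 counts (229 CPM) in shPRAME, 2515 counts (169 CPM) in shBAP1 and 2169 counts (116 CPM) in shEmpty. Its ratios to shEmpty were 1.98 in shPRAME (1.88 to 2.08), which the 3 other scalings called higher, and 1.46 in shBAP1.

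Other chains were low. LAMB3, the beta chain of laminin 332, had 389 counts (21.3 CPM) in shPRAME, 180 counts (12.1 CPM) in shBAP1 and 230 counts (12.3 CPM) in shEmpty, with no call, and its log2 ratio for shBAP1 over shEmpty of -0.02 turned to 0.10 with total-count scaling and to 0.06 with upper-quartile scaling or the trends removed. LAMC3 had 19 counts in shPRAME, 11 in shBAP1 and 83 in shEmpty, which with a count minimum of 10 would be called 4.26-fold lower in shPRAME (2.57 to 7.43) and 5.98-fold lower in shBAP1 (3.17 to 12.4). LAMB4, which lies beside LAMB1 on chromosome 7, had 0, 5 and 1 counts.

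Summed per kilobase, the chain classes differed in how far they moved. Integrin alpha chains came to 611 in shPRAME, 354 in shBAP1 and 321 in shEmpty, and beta chains to 764, 339 and 424. Laminin alpha chains came to 229.7 in shPRAME, 65.9 in shBAP1 and 101 in shEmpty, beta chains to 249, 174 and 161, and gamma chains to 138, 145 and 132. The laminin alpha sum in shPRAME was thus 2.27 times that of shEmpty, the beta sum 1.55 times and the gamma sum 1.05 times.

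Chain levels were set side by side for 24 integrin dimers and 11 laminin trimers of known composition, of which 14 and 10 had all chains measured. Per kilobase of exon ITGB1 lay in each library above every one of its alpha partners taken singly, although their sum (609 in shPRAME, 350.4 in shBAP1 and 319 in shEmpty) lay above ITGB1 (281, 131 and 188). ITGAV, at 44.7 in shPRAME, 52.4 in shBAP1 and 39.5 in shEmpty, lay under ITGB3 and ITGB5, but above ITGB8 (11.4, 24.2 and 10.6). Both orders depend in part on the length: without one, ITGA6 lay above ITGB1 in shBAP1 (657 against 516 CPM) and ITGAV above ITGB5 in shBAP1 (378 against 245 CPM) and in shEmpty (285 against 236 CPM), and per kilobase of coding sequence ITGAV also lay above ITGB5 in shBAP1. For laminin 411, the trimer with the most abundant chains, the scarcest chain was LAMC1 in shPRAME (138) but LAMA4 in shBAP1 (58.2) and in shEmpty (82.1). The scarcest chain of laminin 111 was LAMA1 throughout, at 0.366 in shPRAME, 6.27 in shBAP1 and 16.8 in shEmpty, and that of laminin 211 was LAMA2, at 6.86, 0.236 and 0.0935. These are RNA levels, and neither protein nor assembled complexes were measured.

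Members are long transcripts, with a median exon length of 6487 bases beside 3859 over the measured genes with a known length (95.3%). The 2289 measured genes at least as long as the members' median were called higher in 12.4% and lower in 6.99% of cases in shPRAME against shEmpty, with a median log2 ratio of 0.04. In shBAP1 against shEmpty they were higher in 6.16% and lower in 10.1%, and in shPRAME against shBAP1 higher in 17.6% and lower in 8.52%. With GC and length trends removed, the sign of the ratio turned for LAMB3 in shBAP1 over shEmpty and for LAMA5 in shPRAME over shBAP1, and for none of the other measured members in any comparison.

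Of the 26 measured integrin ligands, 12 were called higher and none lower in shPRAME than in shEmpty, with a median log2 ratio of 0.87, beside 10.2% higher, 9.08% lower and a median of -0.06 over all measured genes. COL1A2, a chain of collagen I, had 12250 counts in shPRAME, 2529 in shBAP1 and 119 in shEmpty, which is 105-fold higher in shPRAME (88.1 to 127) and 26.8-fold higher in shBAP1 (22.3 to 32.5) than in shEmpty. COL1A1, the other chain of collagen I, had only 23, 3 and 1 counts in the same order, under the count minimum. FN1, the fibronectin bound by the ITGA5 dimer, was at 10557 CPM in shPRAME, 3205 CPM in shBAP1 and 1361 CPM in shEmpty, and was 7.76-fold higher in shPRAME than in shEmpty (7.66 to 7.86). EDIL3, an RGD protein that binds the ITGAV receptors, was 9.31-fold higher in shPRAME than in shEmpty (7.62 to 11.5), and COL5A1 25.6-fold higher on 75 and 3 counts (8.44 to 127).

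In shBAP1 9 ligands were higher and 7 lower than in shEmpty, with a median log2 ratio of 0.11, beside 5.53% higher, 8.56% lower and a median of -0.03 over all measured genes. L1CAM, a neural adhesion molecule that integrins bind, had 79 counts in shPRAME, 2153 in shBAP1 and 68 in shEmpty, and was 40.0-fold higher in shBAP1 than in shEmpty (31.4 to 51.7). COL5A1 was 78.3-fold higher on 186 and 3 counts (26.4 to 383), and F11R, a junctional adhesion molecule, 10.9-fold higher on 86 and 10 counts (5.63 to 23.4). Between the knockdowns 13 ligands were higher and 5 lower in shPRAME than in shBAP1 (median 0.83), beside 14.2% and 10.9% over all measured genes. FBLN1 was 20.4-fold higher on 151 and 6 counts (9.17 to 56.6), EDIL3 19.4-fold (14.2 to 27.2) and ICAM5 12.2-fold (10.1 to 14.9), while L1CAM was 33.6-fold lower.

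Of 15 measured basement membrane genes and laminin partners, 4 were higher and 2 lower in shPRAME than in shEmpty (median 0.34), beside 10.2% and 9.08% over all measured genes. NID2, the nidogen that links laminin to collagen IV, was at 14.3 CPM in shPRAME, 4.92 in shBAP1 and 1.92 in shEmpty, 7.43-fold higher in shPRAME than in shEmpty (5.23 to 10.8). The netrin NTN4, which binds laminin, was 7.36-fold higher (5.10 to 10.9) and the anchoring fibril collagen COL7A1 2.98-fold higher (2.59 to 3.45), while the guidance cue NTN1 was 4.47-fold lower. NTN4, with 237 counts in shPRAME, 33 in shBAP1 and 33 in shEmpty, passed the count minimum through shPRAME alone, so it had to differ. The counts and medians of this list include it. In shBAP1 2 genes were higher and 5 lower than in shEmpty (median -0.31), beside 5.53% and 8.56%. COL15A1, a basement membrane zone collagen, had 2856 counts in shPRAME, 112 in shBAP1 and 6539 in shEmpty and was 46.3-fold lower in shBAP1 than in shEmpty, NTN1 was 14.1-fold lower and NTNG2 3.06-fold lower, while COL7A1 was 2.87-fold higher. Between the knockdowns 7 were higher and none lower in shPRAME than in shBAP1 (median 0.95), beside 14.2% and 10.9%, COL15A1 by 20.7-fold (17.1 to 25.2).

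Of 21 measured laminin receptors other than integrins, 4 were higher and 2 lower in shPRAME than in shEmpty (median 0.24), beside 10.2% higher and 9.08% lower over all measured genes. In shBAP1 2 were higher and 2 lower than in shEmpty (median 0.00), beside 5.53% and 8.56%, and in shPRAME 2 were higher and 2 lower than in shBAP1 (median 0.03), beside 14.2% and 10.9%. DMD, the dystrophin of the dystroglycan complex, had 194 counts in shPRAME, 154 in shBAP1 and 10 in shEmpty, so that it was 19.9-fold higher in shPRAME (10.6 to 42.1) and 19.4-fold higher in shBAP1 (10.3 to 41.3). SGCD, a sarcoglycan of the same complex, was 5.11-fold lower in shPRAME than in shEmpty. RPSA, a ribosomal protein also described as a laminin receptor, was at 213 CPM in shPRAME, 588 in shBAP1 and 589 in shEmpty, 2.76-fold lower in shPRAME than in shEmpty. SDC4, the syndecan that acts with the fibronectin receptor, was 2.22-fold lower in shBAP1 than in shEmpty and 5.20-fold higher in shPRAME than in shBAP1 (4.84 to 5.58).

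Among tetraspanins and other membrane partners of integrins, 3 of 16 were higher and 1 lower in shPRAME than in shEmpty (median 0.29), beside 10.2% and 9.08% over all measured genes. CD82, a tetraspanin that restrains cell movement, had 2665 counts in shPRAME, 60 in shBAP1 and 135 in shEmpty, 20.2-fold higher in shPRAME than in shEmpty (17.0 to 24.2) and 36.1-fold higher than in shBAP1 (27.9 to 47.4). PLAUR, the urokinase receptor, was 5.42-fold higher in shPRAME than in shEmpty (4.82 to 6.10), the thrombospondin receptor CD36 10.1-fold higher (7.87 to 13.0), and SLC3A2, a partner of ITGB1, 2.31-fold lower. In shBAP1 1 was higher, CD36 by 9.01-fold (7.02 to 11.7), and 1 lower, CD9 by 2.34-fold, with a median of -0.53, beside 5.53% and 8.56%. Between the knockdowns 6 were higher and none lower in shPRAME than in shBAP1 (median 0.81), beside 14.2% and 10.9%, also BSG by 2.24-fold (2.16 to 2.32) and IGSF8 by 2.19-fold (1.97 to 2.44).

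The list of cytoplasmic adaptors, kinases and inhibitors of integrins had 45 measured genes. In shPRAME against shEmpty 6 were higher, 2 lower and 37 neither (median 0.32), beside 10.2% higher and 9.08% lower over all measured genes. In shBAP1 against shEmpty 3 were higher and 2 lower (median -0.15), beside 5.53% and 8.56%, and in shPRAME against shBAP1 12 were higher and 2 lower (median 0.31), beside 14.2% and 10.9%. TNS1, a tensin that ties beta chain tails to actin, had 350 counts in shPRAME, 0 in shBAP1 and 3 in shEmpty, which is 119.6-fold higher in shPRAME than in shEmpty (40.6 to 583). TNS1 passed the count minimum through shPRAME alone, so it had to differ, and the counts and medians of this list include it. ARHGEF6, a partner of parvins, was 4.32-fold higher in shPRAME (3.94 to 4.73) and 2.08-fold higher in shBAP1 (1.87 to 2.30), the endocytic adaptor NUMB 4.09-fold higher in shPRAME (3.83 to 4.36), and the paxillin relative LPXN 3.29-fold lower in shPRAME, each against shEmpty. NEDD9, a scaffold of focal adhesion kinase signalling, was 3.67-fold higher in shBAP1 than in shEmpty (3.19 to 4.24), the kindlin FERMT1 2.17-fold higher (1.56 to 3.03) and the kinase PTK2B 2.12-fold lower.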

How the data were processed

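The authors deposited a table of unnormalized read counts, 1 column per library, which was the only measurement used. Per the labels' protocols, total RNA was extracted with TRIzol, messenger RNA was made into directional libraries and read in pairs. TopHat, Cufflinks, FastQC and edgeR, with hg19 (GRCh37) as the genome, appear in the submitters' processing notes. Which tool counted reads, over which annotation and with what use of strand, is not given in the sources used here, so overlapping and antisense genes are uncertain. Library totals were 18456328 (shPRAME), 14181829 (shBAP1) and 19430130 (shEmpty) counts, and 0 columns of per-sample values were left unused.

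TMM factors over all 24424 genes were computed in R 4.3.3 with edgeR 4.0.16. Ratios without a pseudocount have exact 95% intervals from the conditional binomial distribution (Python 3.11.15, scipy 1.17.1). A mean count of 50 was needed for a call, which took a 2-fold ratio and an interval that left out 1. In every list, a gene that passed this minimum through 1 library alone was selected for a higher count there. A count of 0 was given a floor of 3 counts in that library. Levels were divided by exon lengths of GENCODE 29 (GRCh38), matched by symbol and used for length, GC content, overlap and gene order only. Promoter windows and their coordinates are those of RefSeq (GRCh38.p14). Protein sequence features of the members were planned and are not analysed here.

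All measured members were named, 1 scarce member is not reported here, and up to 4 called genes with the largest ratios were named per other list and comparison. Members, lists and rules were chosen with earlier results of these data known. The procedure was tested on simulated counts that held counting error only, so that test says nothing on the spread between cultures. Alternatives were 3 other scalings, including DESeq2 1.42.0 size factors, a count minimum of 10, of 200 or of none, a 1.5-fold or 3-fold limit, a stricter interval rule, a pseudocount of 1 CPM and other lengths. Removal of GC and length trends by local regression with a span of 0.3 was chosen after seeing the data.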

Additional observations from a re-analysis of the deposited data

How the results depend on the processing

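No paired analysis was possible because each group has 1 library, and no library could be left out for the same reason. Calls under the other scalings, the pseudocount and the removal of GC and length trends were alike for 11 of the 13 members called in shPRAME against shEmpty, 8 of the 11 called in shBAP1 against shEmpty and 18 of the 18 called in shPRAME against shBAP1, with 3, 1 and 0 members called only under an alternative. The counts of called members moved mostly with the limits themselves, as fewer or more genes can pass them. At a fold limit of 3, shPRAME had 6 members higher and 1 lower than shEmpty, beside 4.95% and 3.34% of all measured genes. At that limit shBAP1 had 0 higher and 2 lower than shEmpty, beside 2.58% and 3.93%. At a fold limit of 1.5, shPRAME had 16 members higher than shEmpty, beside 19.4% of all measured genes. With the whole interval required to lie beyond 2-fold, 1 member was lower in shPRAME and 3 in shBAP1, each against shEmpty. The shares of all measured genes were then 6.24% and 5.72%. With a count minimum of 200, which leaves fewer members measured, 3 were lower in shBAP1 than in shEmpty, beside 7.19% of all genes that passed it. With 1 library a group, depth sets the counting intervals alone, and the spread between cultures is unknown. Below a mean count of 50 members were not called, and counts per gene do not separate isoforms.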
